A study of Mus musculus with 74 samples.

Results

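The genes described here encode 10 basic leucine zipper transcription factors: the FOS proteins (Fos, Fosb, Fosl1, and Fosl2), the JUN proteins (Jun, Junb, and Jund), BATF and BATF3, and ATF3. They were chosen by gene symbol and not by a threshold on their values, though earlier results of these data were known. Of the 10 genes, 9 had a probe on the array, 13 probes in all. Fosl1 had none and is not analysed here. All 9 passed the filter on dim probes and are among the 13817 genes tested, and a gene is represented by its brightest probe. These proteins bind DNA as pairs: a FOS protein needs a JUN protein as partner, and such pairs, called AP-1, bind sites of the form TGANTCA next to many activation genes of T cells. T cell receptor signals reach FOS and JUN through MAP kinases, which act on both their genes and their proteins. BATF and BATF3 lack an activation domain, pair with JUN proteins, and bind together with IRF4 or IRF8, and BATF is needed for several T helper programs, while BATF3 is best known for its role in cross-presenting dendritic cells. ATF3 is induced by many stress and receptor signals and binds sites related to those of the cAMP response.

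Gene expression was measured on 74 Illumina bead arrays. Naive CD4+ CD62Lhi T cells were sorted from spleens and lymph nodes of Balb/c mice aged 5 to 8 weeks, pooled, and were measured at 0 h (Tnaiv). The same cells were then stimulated with anti-CD3 and anti-CD28 in 4 cultures: Th0 cells with antibodies against IFN-γ, IL-4, and IL-12, Th1 cells with IL-12 and anti-IL-4, Th2 cells with IL-4, anti-IL-12, and anti-IFN-γ, and Th1/2 hybrid cells (ThMix in the labels) with IL-12 and IL-4. Cultures were measured at 3, 6, 12, 24, 35, 48, 73, 96, and 120 h, and each of the 37 conditions has 2 arrays, 1 from each of 2 kinetic experiments. Levels are given as log2 of the normalized intensity, array by array as experiment 1 and experiment 2, and a difference of 1 is 2-fold. Levels of different genes come from different probes and are not set against each other. Differences were called at a Benjamini-Hochberg adjusted p below 0.05 in limma, adjusted over all genes tested.

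The labelled cell type was checked against marker genes. A summed level is the log2 of the summed intensities of all markers of a cell type with a probe, whether or not they passed the filter. Such a sum lies above the filter level even where each marker is near it. It is therefore not read against that level and does not by itself show that a cell type was present. All 7 T cell markers with a probe were above the filter level of 6.77, with a summed level between 16.6 and 16.8 at 0 h and between 15.5 and 16.6 at 48 to 120 h. Cd8b1 was at 12.0 at 0 h, whereas Cd8a was not above the filter level in any condition. Of the 7 monocyte and macrophage markers measured, 6 passed the filter, and their summed level was 10.6 in experiment 1 and 11.2 in experiment 2 at 0 h. At 48 to 120 h this sum lay between 9.29 and 9.44 in Th0 and Th1 cells but reached 11.3 in Th2 and 10.8 in Th1/2 cells. In the mean over 48 to 120 h, Adgre1 was higher by 2.33 in Th2 than in Th0 cells, whereas Csf1r, Cd14, and Lyz2 differed by -0.02, 0.06, and -0.04. At 0 h Lyz2 was at 9.75, Csf1r at 8.31, Adgre1 at 8.09, Cd14 at 7.39, and Fcgr1 at 6.86. Itgam and Mpeg1 were below the filter level at 0 h. The dendritic cell markers, of which 4 of 6 passed the filter with Itgax and Xcr1 below it, summed to between 9.30 and 9.57 in all 4 cultures at 48 to 120 h. Siglech had its highest condition mean at 0 h, 9.67, against a lowest of 6.92. At 0 h Zbtb46 and Flt3 were at 6.82 and 6.79, and Clec9a was below the filter level. Of the 5 B cell markers measured, 4 passed the filter with Pax5 below it. The late sum of the B cell markers was between 9.16 and 9.38 in Th0 and between 9.22 and 9.38 in Th1 cells. It was between 9.30 and 10.1 in Th2 and between 9.53 and 9.83 in Th1/2 cells. In the late mean, Cd79b was higher by 0.87 in Th2 than in Th0 cells, whereas Ms4a1, Ebf1, Blnk, and Pax5 differed by 0.14, -0.05, 0.07, and -0.08. At 0 h Cd79b was at 9.60, Ebf1 at 7.29, Blnk at 7.21, and Ms4a1 at 7.13. NK cell markers summed to between 8.05 and 8.29 in all late arrays, with Ncr1 and Klre1 below the filter level. Klrb1c was above it, at 6.97 at 0 h. The 5 granulocyte and mast cell markers with a probe, of which 4 passed the filter, summed to between 9.43 and 9.59 at 0 h and between 8.87 and 9.06 in all late arrays. At 0 h S100a8, S100a9, and Fcer1a were at 7.93, 7.19, and 7.14, with Cpa3 and Mcpt4 below the filter level. In a mixed culture, a change in the share of a cell type and a change in its RNA per cell cannot be told apart. The part of other cells in the values below, among them the changes from 0 h, was not tested. From earlier results of these data, 2 arrays were known to stand apart, Th1/2 cells at 12 h in experiment 1 and Th0 cells at 96 h in experiment 2. Without them, the called change of Fosb from 0 to 24 h and the called rise of Fos from 73 to 96 h were lost.

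The start regions of 6 of these genes are shown because they carry letters of the cAMP response type, which turned up in no other member. The windows are the 150 bases before the transcription start in RefSeq (mouse build GRCm38.p6), read on the strand of the gene from 5′ to 3′. They lie at chr12:85473740-85473889 (Fos, plus strand), chr7:19310046-19310195 (Fosb, minus strand), chr4:95052223-95052372 (Jun, minus strand), chr8:84978749-84978898 (Junb, minus strand), chr12:85686570-85686719 (Batf, plus strand), and chr1:191183334-191183483 (Atf3, minus strand). Capitals mark TGACG, or its complement CGTCA in Atf3, and TGACATCA in Jun.
Fos: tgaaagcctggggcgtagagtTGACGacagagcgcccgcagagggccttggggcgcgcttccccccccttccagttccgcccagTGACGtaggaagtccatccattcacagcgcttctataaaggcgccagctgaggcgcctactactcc
Fosb: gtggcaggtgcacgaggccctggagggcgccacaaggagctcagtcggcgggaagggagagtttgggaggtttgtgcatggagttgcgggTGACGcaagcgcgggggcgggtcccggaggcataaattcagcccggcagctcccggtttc
Jun: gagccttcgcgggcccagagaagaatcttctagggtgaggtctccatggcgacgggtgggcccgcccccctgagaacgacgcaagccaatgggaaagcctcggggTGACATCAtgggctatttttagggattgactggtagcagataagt
Junb: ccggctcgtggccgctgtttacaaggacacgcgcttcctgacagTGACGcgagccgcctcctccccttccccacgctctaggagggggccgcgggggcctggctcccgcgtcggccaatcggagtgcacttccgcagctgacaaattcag
Batf: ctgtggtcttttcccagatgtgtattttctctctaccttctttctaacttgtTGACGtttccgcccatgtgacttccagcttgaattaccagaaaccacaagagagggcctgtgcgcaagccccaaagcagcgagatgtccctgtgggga
Atf3: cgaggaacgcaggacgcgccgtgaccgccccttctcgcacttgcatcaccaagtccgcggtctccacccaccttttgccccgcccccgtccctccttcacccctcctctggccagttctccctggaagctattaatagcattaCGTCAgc
In the 250 bases before the start, searched on both strands, TGACG was found for 5 of the 9 members with a listed start region (Fos, Fosb, Junb, Batf, and Atf3) and in 17.8% of 32851 windows of 27025 genes. These letters are part of TGACGTCA, which no member held and 1.55% of all windows did. Jun held TGACATCA, present in 2.93% of all windows. Within these 250 bases no member held the AP-1 letters TGANTCA (6.75% of all windows), a CArG box (1.47%), or the N4 site of STAT6 (5.85%). The N4 site is TTC and GAA with 4 bases between them. Bases further upstream were not searched, so a site there would not have been found. These matches describe letters and not bound sites.

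Several members are neighbours. On chromosome 12, 209 kb lie between Fos and Batf, with Jdp2, which encodes another partner of JUN, as the 1 protein-coding gene between them. On chromosome 1, Batf3 and Atf3 are 61.4 kb apart, with Fam71a between them. Over the 37 condition means, Pearson's r was -0.20 for Fos and Batf and -0.11 for Batf3 and Atf3. The highest correlations among members were between genes on different chromosomes, namely 0.85 for Fos and Fosb, 0.81 for Fosl2 and Junb, and 0.78 for Fosb and Junb. Batf and Batf3 had r = 0.61, and the lowest value was -0.53 for Fosb and Batf3. All these values rest on the same arrays and are descriptions.

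Before the time course is described, the spread between the experiments has to be given, since it was large for some members at the first and the last time points. At 0 h, Fos was at 11.14 in experiment 1 and 13.87 in experiment 2, and Fosb was at 7.47 and 11.48. Junb was at 11.49 and 14.26, Jun at 8.58 and 11.21, and Atf3 at 6.51 and 8.60. These 5 members were thus at least 2-fold higher in the naive cells of experiment 2, as were 140 of all 13817 genes (1.01%). Fosl2 (7.71 and 8.28), Batf (10.24 and 9.95), Batf3 (6.55 and 6.83), and Jund (8.34 and 9.32) lay closer together.

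Fos, Fosb, and Junb differed between the experiments again at the end. At 120 h, Fosb in experiment 1 was at 6.74 in Th0, 7.64 in Th1, 7.12 in Th2, and 7.03 in Th1/2 cells. In experiment 2 it was at 11.53, 10.95, 11.54, and 9.69. The cultures of the 2 experiments did not overlap, and the lowest difference between them was 2.66. For Fos, the levels in the same order of cultures were 11.19, 10.57, 12.61, and 11.55 in experiment 1 and 13.08, 13.14, 14.17, and 13.26 in experiment 2. Junb lay between 10.90 and 11.63 in experiment 1 and between 12.62 and 13.16 in experiment 2. Fos, Fosb, and Junb were at least 2-fold higher in experiment 2 in all 4 cultures at 120 h, as were 33 genes (0.239%). Both at 0 h and at 120 h, 16 genes met this criterion (0.116%), and these 3 members were among them. Ordered by their mean difference, Fosb was first, followed by Tnfaip3, Ppp1r15a, Fos, H1f2, Cd69, Dusp1, Ccl4, and Junb, and the other genes of this order are named after their values were seen. From 3 to 96 h, no member was 2-fold higher in experiment 2 in all cultures, but Batf3 was at least 2-fold lower in all cultures at 73 h, where 2 of all genes were (0.0145%). Cell type marker sums at 0 h also differed between the experiments. From experiment 1 to experiment 2, those of monocytes and macrophages went from 10.6 to 11.2, of dendritic cells from 10.1 to 10.7, of CD8 T cells from 12.4 to 11.7, and of B cells from 10.5 to 10.2. Those of T cells, NK cells, and granulocytes and mast cells were 16.8 and 16.6, 8.25 and 8.17, and 9.59 and 9.43. At 120 h monocyte and macrophage markers ranged from 9.38 to 11.3 in experiment 1 and from 9.33 to 11.02 in experiment 2. What set the experiments apart was not tested.

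**Figure D1:**
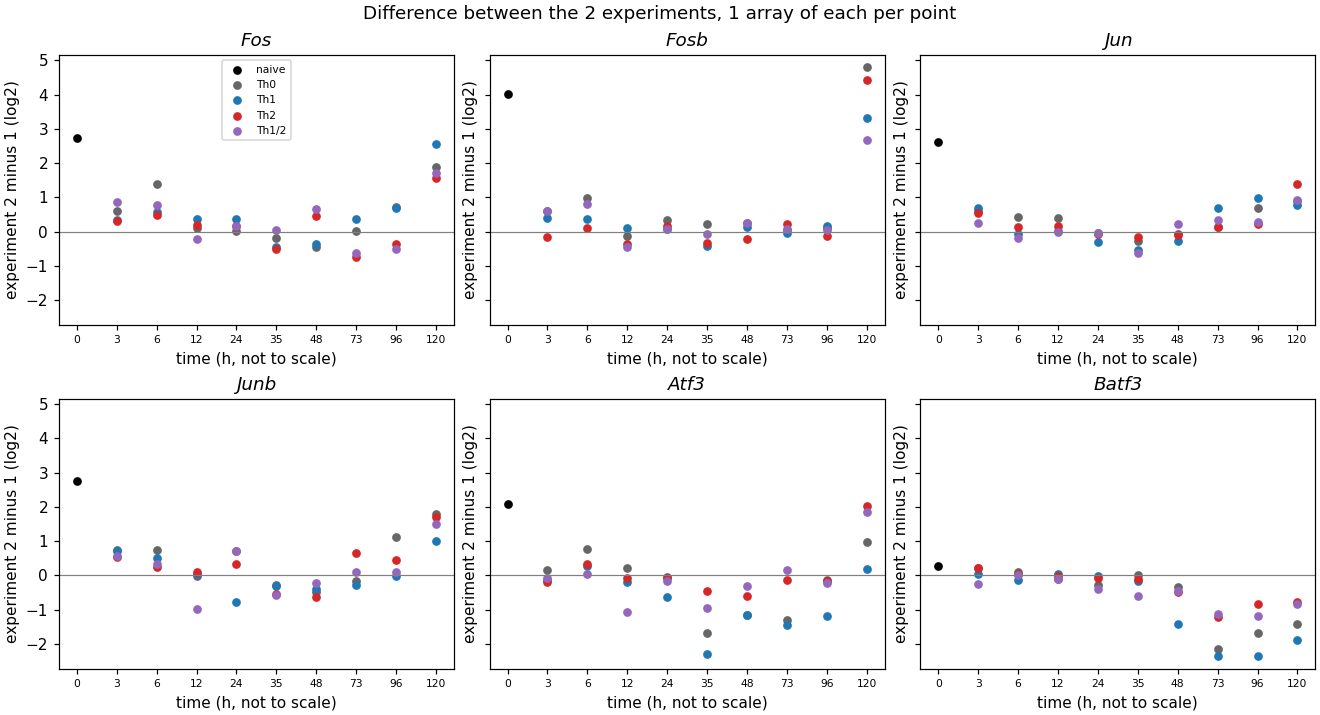
Difference between experiment 2 and experiment 1 (log2 level, y axis) of Fos, Fosb, Jun, Junb, Atf3, and Batf3 at each time in h (x axis), with 1 point per culture and 1 point at 0 h. Fos, Fosb, and Junb stand above 1 at 0 h and in all 4 cultures at 120 h, and Batf3 lies below -1 in all 4 cultures at 73 h.

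The first question was when the factors change after activation. A gene was called kinetic in a culture if it passed an F-test over the 9 times against 0 h and differed at least 2-fold from 0 h, in 1 direction, at 2 consecutive times. Of the 9 members, 8 were kinetic in at least 1 culture, against 33.4% of all genes tested. Fos, Fosb, Fosl2, Jun, Batf3, and Atf3 were kinetic in all 4 cultures (22.5% of all genes). Batf was kinetic in Th2 and Th1/2 cells, Junb in Th0 cells, and Jund in none. Without the 0 h array of experiment 2, Junb was kinetic in 0 cultures and Jun in 3. Without that of experiment 1, Junb and Jund were kinetic in 4, Batf in 3, and Atf3 in 3. Fosb stayed kinetic in 4 cultures without either 0 h array, but its direction depended on them. In the mean of the cultures, its changes at 24, 35, and 48 h were -1.86, -1.99, and -1.92 with both arrays. Without the 0 h array of experiment 2 they were 0.14, 0.02, and 0.08, and those at 3, 6, and 12 h were 3.45, 1.53, and 1.15. By culture, 7 members were kinetic in Th0, 6 in Th1, 7 in Th2, and 7 in Th1/2 cells, against 26.4%, 27.1%, 28.3%, and 28.9% of all genes. The sequence of the changes differed from member to member.

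Fosl2 had the largest change of the members at 3 h. Its level was 7.71 and 8.28 at 0 h and between 13.61 and 13.90 in all 8 arrays at 3 h, so that the groups were far apart. The rise, as the mean of the 4 cultures, was 5.76 (SE 0.27, n = 8 against 2 arrays, adjusted p = 1.51e-20), which is 54.2-fold. Fosl2 then fell by 1.91 to 6 h and by 2.23 to 12 h, to levels between 9.16 and 9.89. It stayed above 0 h in the mean of the cultures at all 9 times. At 24 h the difference from 0 h was 1.08 (adjusted p = 7.76e-04), and without the 0 h array of experiment 1 it was 0.79 and was no longer called (adjusted p = 0.0758). The 2 other probes of Fosl2 were dim, with ranges over conditions of 0.79 and 1.82 against 5.80 for the brightest, and their r with it was 0.84 and 0.83.

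Atf3 rose together with Fosl2, and by different amounts in the cultures. At 3 h its level was 10.35 and 10.52 in Th0, 10.51 and 10.38 in Th1, 12.85 and 12.66 in Th2, and 12.64 and 12.57 in Th1/2 cells, against 6.51 and 8.60 at 0 h. Both cultures given IL-4 were thus above both cultures with an antibody against it. The mean change of the 4 cultures was 4.0 (SE 0.50, adjusted p = 1.19e-08), which is 16-fold. Set against either 0 h array alone, the change was 5.04 and 2.96, and it remained called both times. By culture it was 2.88 in Th0, 2.89 in Th1, 5.20 in Th2, and 5.05 in Th1/2 cells. Atf3 fell by 1.35 from 3 to 6 h (adjusted p = 4.58e-04).

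For Fos, Fosb, and Junb, the change at 3 h depended on the 0 h array. These are immediate early genes, whose messages appear within minutes of a signal and decay quickly. Fosb was between 10.49 and 11.30 in the 8 arrays at 3 h, which is above the 0 h array of experiment 1 (7.47) and below that of experiment 2 (11.48). Its mean change of 1.45 (SE 0.79) was not called (adjusted p = 0.162) and was 3.27 in experiment 1 and -0.38 in experiment 2. Fos changed by 0.24 on average, with 1.33 in experiment 1 and -0.86 in experiment 2. Without the 0 h array of experiment 2, the changes of Fosb (3.45, adjusted p = 0.0042), Junb (1.90, 0.0032), and Fos (1.60, 0.034) were called. Without that of experiment 1 none of these changes was called, and Fos and Fosb lay below 0 h by 1.12 and 0.56.

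For Jun, too, the change at 3 h depended on the 0 h array. Jun encodes the partner that FOS and BATF proteins share. Its 3 h levels lay between 8.21 and 8.93, against 8.58 and 11.21 at 0 h, so that the change of -1.31 (adjusted p = 0.0022) rested on 1 array. Without the 0 h array of experiment 2, the change was 0.00. At 24 h Jun was between 7.17 and 7.83, below both 0 h arrays, and the change of -2.48 was called with either 0 h array alone (-1.17 and -3.79, adjusted p of 0.0069 and 1.07e-11). Thus 3 of 9 members were called at 3 h, against 37.2% of all genes, and 7 at 24 h, against 50.3%. At 24 h Fos, Fosb, Jun, and Junb were lower and Fosl2, Batf, and Atf3 higher, while 23.9% of all genes were lower and 26.4% higher. The calls of Fosb (-1.86) and Junb (-1.25) were lost without the 0 h array of experiment 2, where both changes became 0.14, and that of Atf3 (1.86) was lost without the 0 h array of experiment 1 (0.81, adjusted p = 0.338). That of Junb was also lost without the Th1 arrays of experiment 2, and that of Fosb without 1 experiment of Th1, Th2, or Th1/2 cells and without the 2 arrays that stand apart (0.0503). It was also lost with no filter on dim probes, with eBayes with trend and robust, and with adjustment over all contrasts, and was kept under 10 of 20 alternatives.

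The fall from 3 to 6 h took in most members. Fosb fell by 1.92, Fosl2 by 1.91, Fos and Atf3 by 1.35 each, Junb by 0.96, and Jund by 0.75, all with adjusted p below 0.05 (the highest, for Junb, 0.0049). These 6 of 9 members compare with 19.3% of all genes that fell in the same step. None of the 9 rose, while 22.2% of all genes did. Fos was between 12.08 and 13.06 at 3 h and between 10.78 and 12.16 at 6 h, with 1 array at 6 h above the lowest at 3 h. For Jund the ranges were 8.63 to 9.01 and 7.83 to 8.24, which do not overlap. JUND is the JUN protein that resting cells are known to hold, and its message had the smallest range of the members over conditions, 0.94.

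From 6 to 12 h, Fos fell by 1.11 and Fosl2 by 2.23. The falls of Jun (-0.73) and Atf3 (-0.83) in this step were called in the fit without blocks but not with each experiment and time as a random block (adjusted p = 0.062 and 0.169). From 12 to 24 h Fos fell by 1.06 again, and Batf rose by 1.01. Fosl2 then rose by 0.78 from 24 to 35 h and by 0.65 from 35 to 48 h, and Batf3 by 1.12 from 35 to 48 h and by 1.39 from 48 to 73 h. Atf3 fell by 1.55 from 48 to 73 h. By 73 h all 9 members were called against 0 h, against 45.0% of all genes. Fosl2, Batf, Batf3, and Atf3 were higher and Fos, Fosb, Jun, Junb, and Jund lower than in naive cells, and the call of Jund (-0.52) was lost with the random block (adjusted p = 0.055). The count of 9 depended on the 0 h arrays. Without that of experiment 2, 5 members were called, and Fosb, Jun, Junb, and Jund were not. Without that of experiment 1, 8 were called, and Atf3 was not. With 1 experiment of a single culture left out, between 6 and 9 were called, and Junb, Jund, or Atf3 were those lost. The change of Atf3 was 2.69 in experiment 1 and -0.08 in experiment 2. Without the 0 h array of experiment 2, the changes at 73 h were -0.77 for Jun (adjusted p = 0.0982), -0.59 for Fosb, -0.03 for Jund, and 0.26 for Junb. Without that of experiment 1, the change of Atf3 was 0.26 (0.806).

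**Figure D2:**
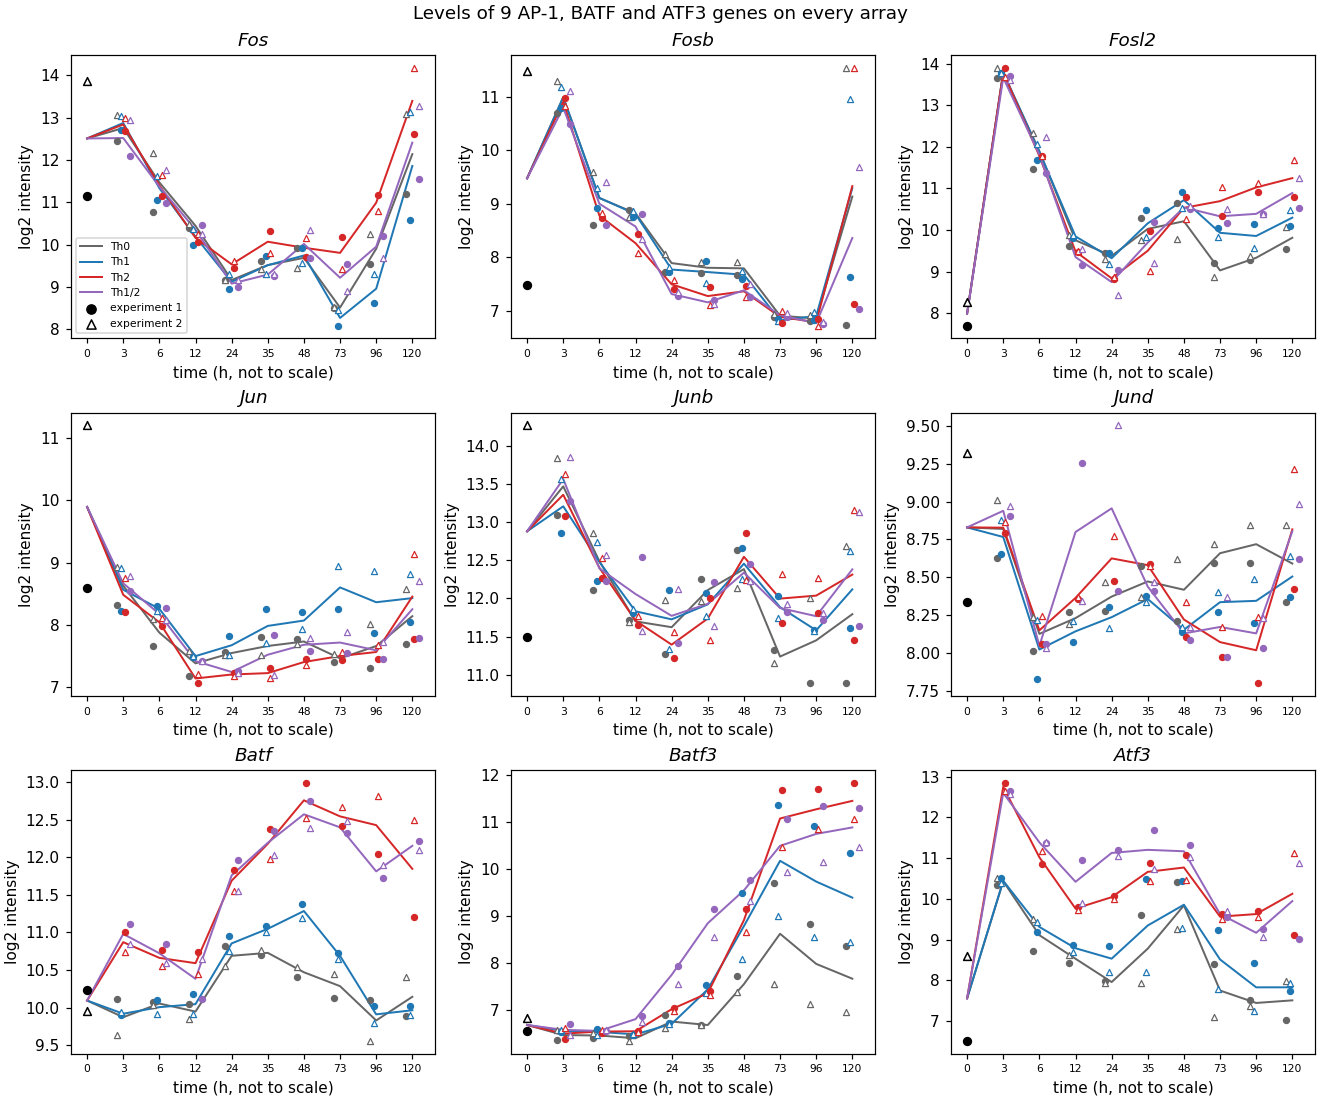
Level of each of the 9 members (log2 normalized intensity, y axis) against time in h (x axis, spaced by sample order), with a line through the mean of the 2 arrays of each culture and a point for each array. Fosl2 is between 13.61 and 13.90 in all arrays at 3 h, Batf and Batf3 part between cultures at later times, and the means of Fos and Fosb are higher at 120 h than at 96 h.

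Fos moved down and up again after 48 h, and Fosb differed from 96 to 120 h. Fos fell by 0.89 from 48 to 73 h (adjusted p = 0.0232) and rose by 1.0 from 73 to 96 h (0.0198), with 0.81 in experiment 1 and 1.19 in experiment 2. Neither step was called with the random block (0.0968 and 0.120). The fall was also lost without the experiment 1 arrays of Th0 or Th1 cells or the experiment 2 arrays of Th2 or Th1/2 cells. The rise was lost without the experiment 2 arrays of Th0 or Th1 cells, either experiment of Th2 or Th1/2 cells, or the 2 arrays that stand apart (up to 0.0911). Fosb was between 6.72 and 6.98 in all 8 arrays at 96 h, about the filter level of 6.77. At 120 h Fosb was, as given above, between 9.69 and 11.54 in experiment 2 but at most 7.64 in experiment 1. The step from 96 to 120 h was 2.20 (adjusted p = 0.0033), with 0.33 in experiment 1 and 4.08 in experiment 2. It was not called without the experiment 2 arrays of any single culture, with an adjusted p of up to 0.119. For Fos the step from 96 to 120 h was 2.50 (adjusted p = 2.00e-07), with 1.60 in experiment 1 and 3.40 in experiment 2, and it was called under all alternatives run. Of all genes tested, 5.83% were called in this step, and 2.35% of all genes were higher.

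The main comparison was between the cultures. Differences were taken over 3 windows, early (3 to 12 h, 6 arrays per culture), middle (24 and 35 h, 4 arrays), and late (48 to 120 h, 8 arrays). The pairs share cultures, so their results are not independent of each other. Between Th1 and Th0 cells no member was called in the early or middle window (0.123% and 0.0651% of all genes), and 2 were called late (5.80%). Between Th2 and Th0 cells, 2 members were called early, 2 in the middle window, and 5 late, against 1.70%, 3.76%, and 25.0% of all genes. Between Th1/2 and Th0 cells the counts were 2, 3, and 4, against 2.81%, 4.20%, and 23.9%. Between Th1 and Th2 cells they were 2, 1, and 6, against 1.48%, 3.72%, and 20.4%. Between Th1/2 and Th1 cells 2 members were called in each window, against 2.05%, 2.78%, and 15.7%. In the comparison of Th1/2 with Th2 cells no member was called in any window, where 0.166%, 0.478%, and 4.13% of all genes were, and 1 member, Batf3 in the middle window, passed when each experiment and time was a random block. The experiments pair the samples, and blocks moved some counts. The shares over all genes come from the fit without a block and were not computed with one. The counts with a block are therefore not read as results about the members. With the experiment as a replicate block over all times, Jun (-0.56, adjusted p = 0.0484) and Batf3 were also called late between Th1/2 and Th1 cells, 4 in all. With the random block 6 were, adding Fos and Fosl2, and for Th1 against Th2 cells in the middle window 3 were. With the block within times, the middle counts were 4 for Th1 against Th2, 4 for Th2 against Th0, 5 for Th1/2 against Th0, and 6 for Th1/2 against Th1 cells, and the late counts 4 for Th1 against Th0, 6 for Th1/2 against Th1, and 2 for Th1/2 against Th2 cells.

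Batf had the lowest adjusted p of the members late, in each of the 4 comparisons of a culture with IL-4 and a culture without it. Its level was 10.24 and 9.95 in naive cells. At 3 h it was at 10.11 and 9.63 in Th0, 9.89 and 9.94 in Th1, 11.01 and 10.74 in Th2, and 11.11 and 10.85 in Th1/2 cells. The 4 arrays with IL-4 were above the 4 arrays without it, and above naive cells. Against 0 h, the change at 3 h was 0.78 in Th2 (adjusted p = 0.0158) and 0.89 in Th1/2 cells (0.0057), while -0.22 in Th0 and -0.18 in Th1 cells were not called. Over the early window, Batf was higher by 0.75 in Th2 than in Th0 cells (SE 0.15, adjusted p = 0.0013) and by 0.74 in Th1/2 than in Th0 cells (9.92e-04). The 6 early arrays of Th0 cells did not overlap with those of Th2 or of Th1/2 cells, which was so for 0.413% and 0.586% of all genes. For Th1/2 cells the gap was narrow, with a lowest level of 10.113 against a highest level of 10.111 in Th0 cells. That lowest Th1/2 array was the one at 12 h in experiment 1, which stands apart. Both early calls were lost without the Th0 arrays of experiment 2 (adjusted p = 0.101 and 0.0821).

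The distance widened with time. At 48 h Batf was at 12.99 and 12.53 in Th2 and 12.76 and 12.39 in Th1/2 cells, against 10.40 and 10.54 in Th0 and 11.38 and 11.19 in Th1 cells. Th1 cells thus lay between Th0 cells and the cultures with IL-4 at this time. At 96 h Th1 cells were at 10.02 and 9.80 and Th0 cells at 10.10 and 9.56, and the pair overlapped. Over the late window the lowest, median, and highest of 8 arrays were 9.56, 10.26, and 10.54 in Th0, 9.80, 10.34, and 11.38 in Th1, 11.20, 12.51, and 12.99 in Th2, and 11.72, 12.27, and 12.76 in Th1/2 cells. The Th2 and Th1/2 arrays did not overlap with those of Th0 cells (2.03% and 2.29% of all genes), and those of Th1 and Th2 cells overlapped through the Th2 array of experiment 1 at 120 h. The late difference was 2.22 for Th2 against Th0 cells (SE 0.13, adjusted p = 7.21e-18), which is 4.65-fold, with 2.04 in experiment 1 and 2.39 in experiment 2. It was 2.06 for Th1/2 against Th0 cells (7.38e-17), -1.94 for Th1 against Th2 cells (4.93e-16), and 1.78 for Th1/2 against Th1 cells (1.41e-14). Between Th1/2 and Th2 cells it was -0.16 (SE 0.13, adjusted p = 0.726), and between Th1 and Th0 cells 0.28 (SE 0.13, 0.270). The 4 called late differences of Batf kept their call under all 21 alternatives.

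That the Batf difference itself grew was tested as the late minus the early difference. It was 1.47 for Th2 against Th0 cells (SE 0.20, adjusted p = 3.17e-07) and 1.32 for Th1/2 against Th0 cells (SE 0.20, 2.44e-06). Of the 9 members, 3 passed this test for each of these pairs, Fosl2, Batf, and Batf3, against 13.0% and 12.4% of all genes. For Th1 against Th2 cells 2 passed (8.75%), for Th1/2 against Th1 cells 1 (6.30%), and for Th1 against Th0 and Th1/2 against Th2 cells none (1.98% and 0.977%).

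**Figure D3:**
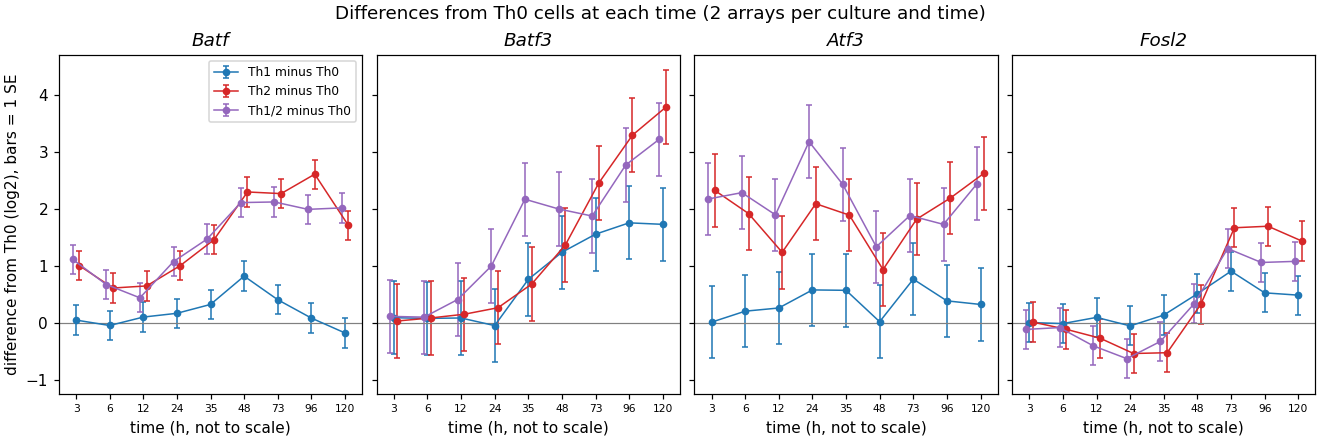
Difference from Th0 cells (log2, y axis) of Batf, Batf3, Atf3, and Fosl2 at each time in h (x axis), for Th1, Th2, and Th1/2 cells, with points for the difference of the means of 2 arrays and bars of 1 SE. For Batf the points of Th2 and Th1/2 cells lie above 0 at every time, and for Batf3 they lie near 0 up to 6 h and are highest at 120 h.

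Batf3 came later. From 3 to 12 h it lay between 6.35 and 6.87 in all cultures, about the filter level of 6.77, and 15 of the 37 condition means were below that level. At 24 h it was at 7.95 and 7.56 in Th1/2, 7.06 and 6.99 in Th2, 6.72 and 6.70 in Th1, and 6.90 and 6.62 in Th0 cells, so that both arrays of Th1/2 and of Th2 cells were above the range of 3 to 12 h. At 35 h Th1/2 cells were at 9.15 and 8.55. At the same time Th2 cells were at 7.41 and 7.32, Th1 cells at 7.53 and 7.36, and Th0 cells at 6.68 and 6.69. In the middle window the difference between Th1/2 and Th0 cells was 1.58 (SE 0.45, adjusted p = 0.0330), and it was lost without either experiment of Th0, Th2, or Th1/2 cells (adjusted p up to 0.266) and with the mean of the 2 expressed probes of Batf3 (1.27, 0.0669). Against Th1 and Th2 cells it was 1.22 (0.203) and 1.11 (0.590), which became 0.0044 and 0.033 with the random block.

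At 73 h Batf3 was at 9.70 and 7.55 in Th0, 11.36 and 9.0 in Th1, 11.68 and 10.47 in Th2, and 11.06 and 9.94 in Th1/2 cells. Experiment 1 was higher in each culture, by at least 2-fold, and the order of cultures within an experiment kept Th0 cells lowest. At 120 h it was at 8.37 and 6.97 in Th0, 10.34 and 8.45 in Th1, 11.83 and 11.07 in Th2, and 11.30 and 10.48 in Th1/2 cells. Over the late window Batf3 was higher by 2.72 in Th2 than in Th0 cells (SE 0.32, adjusted p = 5.73e-09, 6.59-fold), by 2.46 in Th1/2 than in Th0 cells (5.74e-08), and by 1.57 in Th1 than in Th0 cells (7.81e-04). The last call was lost without the Th0 arrays of experiment 2 or the Th1 arrays of experiment 1, with a lowest difference of 0.56 and an adjusted p of up to 0.545. Th1 cells were below Th2 cells by 1.16 (adjusted p = 0.0064), which was not called without 120 h or without single experiments of either culture (up to 0.848). Between Th1/2 and Th1 cells the difference of 0.90 missed the threshold (adjusted p = 0.0504) and passed it with the experiment as a replicate block (0.0097) and with the random block (7.65e-04). The other probe of Batf3 gave 2.41 for Th2 against Th0 cells.

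For Atf3 the 3 h differences given above (2.32 for Th2 against Th0, 2.17 for Th1/2 against Th0, -2.31 for Th1 against Th2, and 2.16 for Th1/2 against Th1 cells) were not called at that time alone, with adjusted p between 0.0566 and 0.0894. With the experiment as a replicate block the first passed (0.0470), and with the random block all 4 did (0.0011 to 0.0027). Over the early window it was higher by 1.82 in Th2 than in Th0 cells (SE 0.37, adjusted p = 0.0017) and by 2.11 in Th1/2 than in Th0 cells (1.15e-04). The first of these was lost without the Th0 arrays of experiment 1 or the Th2 arrays of experiment 2 (up to 0.0721). At 24 h its level was 7.97 and 7.94 in Th0, 8.85 and 8.21 in Th1, 10.08 and 10.01 in Th2, and 11.21 and 11.05 in Th1/2 cells. At this time Th1/2 cells had the highest level in both experiments. The middle differences were 1.99 for Th2 (adjusted p = 0.0038) and 2.80 for Th1/2 cells (2.21e-05) against Th0 cells, and 0.81 between Th1/2 and Th2 cells was not called (SE 0.45, 0.906). The difference of Th2 cells was lost without the Th0 arrays of experiment 2 or the Th2 arrays of experiment 1 (up to 0.149). At 35 h experiment 1 gave 9.61 in Th0 and 10.49 in Th1 cells, and experiment 2 gave 7.94 and 8.20. Late, Atf3 was higher by 1.89 in Th2 than in Th0 cells (SE 0.32, 8.57e-06), with a lowest, median, and highest level of 9.11, 9.67, and 11.14 against 7.02, 7.75, and 10.42. The ranges overlapped across times, but in each of the 8 pairs of arrays from 1 time and experiment Th2 cells were higher. Th1/2 cells were higher than Th0 cells by 1.84 (1.38e-05), Th1 cells were lower than Th2 cells by 1.52 (2.92e-04), and Th1/2 cells were higher than Th1 cells by 1.47 (5.85e-04), and the last call was lost without the Th1 arrays of experiment 2 (0.0629). Late minus early differences of Atf3 were not called for any pair.

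Of the FOS family, Fosl2 differed between the cultures late. At 24 h Th2 cells (8.82 and 8.86) and Th1/2 cells (9.05 and 8.45) were below Th0 cells (9.45 and 9.31). Neither difference was called at this time or in the middle window. At 96 h Fosl2 was at 9.28 and 9.39 in Th0, 10.15 and 9.57 in Th1, 10.91 and 11.14 in Th2, and 10.39 and 10.39 in Th1/2 cells. The late difference was 1.28 for Th2 against Th0 cells (SE 0.17, adjusted p = 1.04e-07, 2.42-fold) and 0.94 for Th1/2 against Th0 cells (3.39e-05). Th1 cells were above Th0 cells by 0.60 (0.0231) and below Th2 cells by 0.67 (0.0029). The call of Th1 against Th0 cells was lost without the Th0 arrays of experiment 2 or without the Th1 arrays of either experiment (adjusted p up to 0.333). That of Th1 against Th2 cells was lost without the arrays of experiment 2 of either culture (up to 0.0831). The 2 other probes of Fosl2, which were dim, gave smaller late differences. These were 0.17 and 0.67 for Th2 against Th0, 0.17 and 0.63 for Th1/2 against Th0, and -0.08 and -0.42 for Th1 against Th2 cells.

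Fos was higher in Th2 cells late. At 73 h it was at 8.50 and 8.53 in Th0, 8.09 and 8.45 in Th1, 10.18 and 9.43 in Th2, and 9.54 and 8.90 in Th1/2 cells. At 96 h Th2 cells were again highest in both experiments, with 11.17 and 10.81. Over the late window Th1 cells were below Th2 cells by 1.32 (SE 0.31, adjusted p = 0.0013), with -1.61 in experiment 1 and -1.03 in experiment 2, a call lost without the Th1 arrays of experiment 1 (0.109). Th2 cells were above Th0 cells by 0.97 (0.0176), which was not called without 120 h, without the Th0 arrays of experiment 1, or without either experiment of Th2 cells (up to 0.211).

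Jun was the 1 member called higher in Th1 than in Th2 cells. At 96 h it was at 7.87 and 8.86 in Th1 cells, against 7.31 and 8.01 in Th0, 7.45 and 7.68 in Th2, and 7.46 and 7.73 in Th1/2 cells. Within each experiment, Th1 cells had the highest level at this time. The late difference between Th1 and Th2 cells was 0.64 (SE 0.22, adjusted p = 0.0341), and it was lost without the Th1 arrays of experiment 2, without the Th2 arrays of experiment 1, and without either experiment of Th1/2 cells (up to 0.481). Against Th0 cells it was 0.62 (SE 0.22, 0.102, and 0.0064 with the random block). Jun was lower in Th1/2 than Th1 cells in all 8 late pairs of arrays, by 0.11 to 1.13, and the mean of -0.56 was not called without a block (SE 0.22, 0.0869). Fosb, Junb, and Jund were not called between any pair of cultures late. Junb had a higher level in Th2 than Th0 cells in all 8 pairs of arrays, by 0.51 on average (SE 0.28, 0.217). For Jund, Th2 cells were below Th0 cells by 0.32 (SE 0.13, 0.0793), and this passed with the replicate block (0.0342) and with the random block (0.0151).

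**Figure D4:**
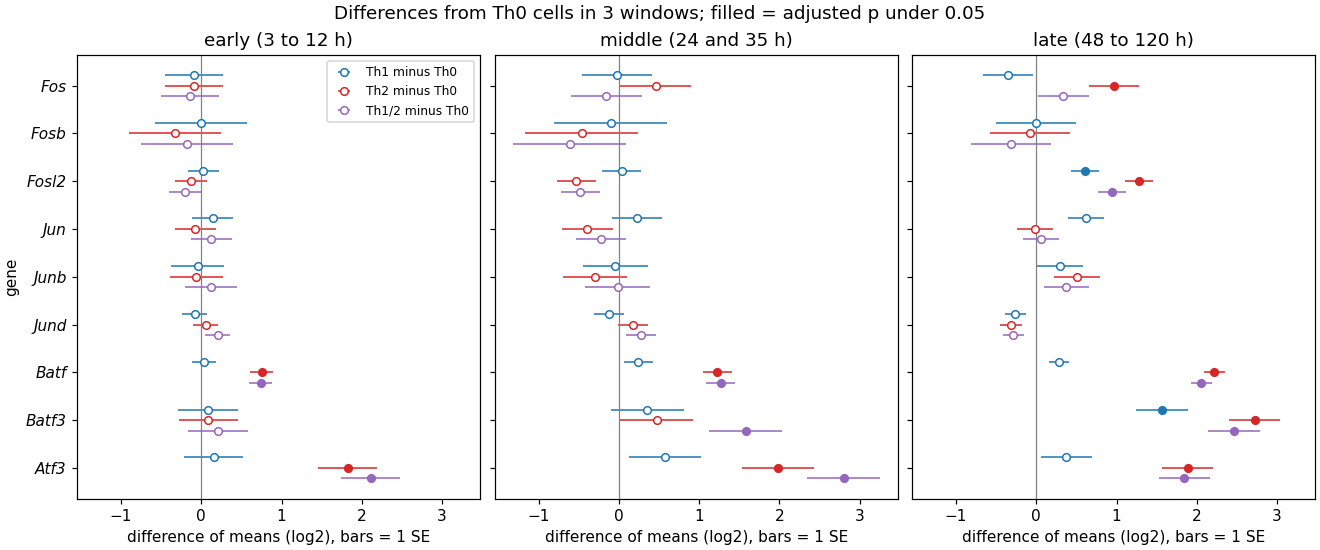
Differences of Th1, Th2, and Th1/2 cells from Th0 cells (log2, x axis) for the 9 members (y axis) in the early, middle, and late windows, with bars of 1 SE and filled points for adjusted p below 0.05. Batf and Atf3 stand above 0 in Th2 and Th1/2 cells against Th0 cells in all 3 windows, and Batf3 and Fosl2 in the late window.

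At single times a culture has 2 arrays. Of the 81 tests for each pair, given by 9 members and 9 times, 15 were called between Th2 and Th0 cells, 15 between Th1/2 and Th0 cells, 9 between Th1 and Th2 cells, and 8 between Th1/2 and Th1 cells. Over all genes and times, 4.66%, 4.51%, 3.38%, and 2.43% of the tests of these pairs were called. None was called for Th1 against Th0 or for Th1/2 against Th2 cells (0.702% and 0.406% of all tests). With each experiment and time as a random block these counts were 24, 24, 19, 15, 5, and 0. The shares above come from the fit without a block. Shares with the block were not computed, so the higher counts are not read as a result about the members. In the fit without a block, Batf made up 7 of the calls between Th2 and Th0 cells. They were at 3 h and at every time from 24 to 120 h, with the largest difference at 96 h (2.60, adjusted p = 2.98e-10).

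The genes whose time course was most like that of a member were listed by Pearson's r over the 37 condition means. Fos was most like Prf1 (r = 0.91), which encodes perforin, Zfp36 (0.91), which encodes an mRNA decay factor, and Ppp1r15a (0.90). Fosl2 was most like Rnf19a (0.92) and Crem (0.92), the latter a bZIP factor of the cAMP response. Batf was most like Rbpj (0.90), the DNA-binding factor of Notch signalling, Rai14 (0.88), and Stra6 (0.87). Batf3 was most like Fbxo2 (0.96), the cytokine gene Il24 (0.95), and Renbp (0.95). Atf3 was most like Gfi1 (0.88), which encodes a repressor, Inhba (0.87), and the chemokine receptor gene Ccr8 (0.86). For Jund the highest r was 0.71 (Rchy1). For Fosb these genes were Tmem87b, Kmt5b, and Fam120b (0.91 to 0.93), for Jun St3gal6, H2-Ob, and Dusp1 (0.81 to 0.85), and for Junb Myo9b, Gadd45a, and Per1 (0.89 to 0.90). Zdhhc9 (0.90) was the remaining gene for Fosl2, and Atn1 and Itga6 (0.70 and 0.68) those for Jund.

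Other genes of the same pathway were followed in 4 lists. Their counts are read against those over all genes. At 3 h, 15.7% of all genes were higher and 21.5% lower than at 0 h. Late, 11.1% were higher and 14.0% lower in Th2, 10.1% and 13.8% in Th1/2, and 2.94% and 2.86% in Th1 against Th0 cells, and 10.5% and 9.97% in Th1 against Th2 cells. Of 34 other bZIP genes, 31 were tested. Late, in Th2 against Th0 cells, 7 were higher and 1 lower, with a list median of 0.06 against -0.01 over all genes. Crem was higher by 1.38 (adjusted p = 3.25e-10), Ddit3, an ER stress factor, by 1.02 (0.0018), and Jdp2, the neighbour of Fos and Batf, by 0.73 (1.18e-10). In Th1/2 against Th0 cells 10 were higher and 1 lower, and Maf, a factor for Il4 transcription, was higher in Th1/2 than in Th2 cells by 0.47 (8.11e-10). In Th1 against Th0 cells 2 were higher and 1 lower. At 3 h, 12 were higher and 3 lower than at 0 h.

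Of 16 partner factors, the IRF, NFAT, NF-κB, ETS, RUNX, and STAT proteins that bind next to AP-1 or BATF, 14 were tested. Irf4, whose product binds with BATF, was higher late by 2.01 in Th2 (adjusted p = 1.45e-14), 2.02 in Th1/2 (1.30e-14), and 1.16 in Th1 cells (1.88e-07) than in Th0 cells. Irf8 was higher by 1.27 in Th1 than in Th2 cells (1.57e-06). In the late comparison of Th2 with Th0 cells 3 partners were higher and 3 lower, and at 3 h 9 were higher and 3 lower than at 0 h. Of 26 genes that signal to AP-1, 19 were tested. At 24 h, 1 of them, Map2k3, was higher and 11 were lower than at 0 h, with a list median of -0.58 against 0.04 over all genes. Late, Map2k6, a kinase upstream of p38, was 0.95 higher in Th2 than Th0 cells (5.51e-09), and in this comparison 5 were higher and 4 lower.

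Of 18 T cell genes known to carry AP-1 or BATF sites, 17 were tested, and 15 were higher and none lower at 3 h, with a list median of 1.90 against -0.0018 over all genes. Late, in Th1 against Th2 cells, 8 were higher and 5 lower. Ifng, the Th1 cytokine, was higher by 4.89 in Th1 cells and Il4, the Th2 cytokine, lower by 3.69 on the same scale. In Th2 against Th0 cells 5 were higher and 7 lower. Il4 was higher by 4.34 and Icos, a costimulatory receptor, by 1.52, whereas Il2 and Ccl4 were among the lower genes, as were Csf2, Tnf, Fasl, Cd69, and Ccl3, 5 genes picked once the values were known. In Th1/2 against Th0 cells 8 were higher and 7 lower, with Il21 higher by 1.60 (adjusted p = 9.60e-09).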

How the data were processed

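The authors deposited linear normalized probe intensities, from 55.8 to 69892 with array medians of 107 to 111. Per the paper's methods, they had corrected the background and quantile normalized. The software was not given in the sources used here. Log2 was taken with no further normalization. Bead arrays hold no read depth, so precision is limited by the number of arrays. Of 45135 probes, 34773 had 1 gene symbol and were used, 18 had several, and 10344 had none listed. Probes passed with a condition mean above 6.77, the median of all log2 values, in at least 1 condition, and each of 13817 genes is its brightest probe.

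Tests used limma 3.58.1 in R 4.3.3, with 74 arrays in 37 conditions and Benjamini-Hochberg adjustment over all genes within a contrast. Its F-test stands in for maSigPro, which the methods used. The scripts were tested on simulated data with noise independent between arrays. That test cannot show how calls behave where arrays of 1 experiment correlate. The paper's methods describe 2 independent kinetic experiments, so replicate numbers pair the samples. Across genes, residuals of cultures sharing time and experiment correlated with a median r of 0.536 in 54 pairs (0.0108 to 0.722), and those of all 666 pairs of conditions with 0.108. As planned, the values given come from the fit without a block. Alternatives had the experiment as a replicate block over all times, within times, or, chosen after seeing the data, as a random block (consensus correlation 0.338). The block within times takes the difference between experiments out of the error. It suits comparisons of cultures but not changes over time. The p-values of the fit without a block rest on the spread between the 2 arrays of each condition. That fit takes arrays of 1 experiment as independent, although cultures sharing time and experiment correlated and only 2 experiments were run.

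The members, lists, and markers were chosen with earlier results of these data known. Named genes are the members, the 3 genes most like each, and the called list genes with the largest differences, and others are marked. Start regions are RefSeq's (GRCm38.p6).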

Additional observations from a re-analysis of the deposited data

Results flagged for a closer look

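The difference between cultures changed from the early window (3 to 12 h) to the late window (48 to 120 h) for 3 of the 9 members, by the limma test of the late minus the early difference with Benjamini-Hochberg adjustment over all genes. For Batf the change was 1.47 for Th2 against Th0 cells (SE 0.20, adjusted p = 3.17e-07), 1.32 for Th1/2 against Th0 cells (2.44e-06), 1.07 for Th1/2 against Th1 cells (1.52e-04), and -1.22 for Th1 against Th2 cells (1.33e-05), each with the same sign in both experiments. These 4 values kept their call under all 21 alternatives. For Batf3, which was near the filter level in all cultures early, the change was 2.63 for Th2 (SE 0.49, 1.16e-04) and 2.26 for Th1/2 cells (8.95e-04) against Th0 cells. The latter was lost without the Th0 arrays of experiment 2 or the Th1/2 arrays of experiment 1 (adjusted p up to 0.108). For Fosl2 it was 1.40 for Th2 (SE 0.26, 1.22e-04) and 1.14 for Th1/2 cells (0.0017) against Th0 cells, the latter lost without the Th0 arrays of experiment 2 (0.107), and -0.83 for Th1 against Th2 cells (0.0383), lost under 6 alternatives (up to 0.344), among them without either experiment of Th1 cells, without the Th2 arrays of experiment 2, and without 120 h.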

How the results depend on the processing

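Counted here were 67 called results of single members. Windows and late minus early differences were covered, as were changes of the culture mean from 0 h at 3, 24, and 120 h. Of the steps, those from 3 to 6 h and from 96 to 120 h were covered. Other called changes and steps, and calls between cultures at single times, were not counted. Of the 67, 33 kept their call under every alternative run. Another 3 changed sign in 1 alternative, which left out the 0 h array of experiment 2. These were Jun at 3 h (-2.62 to 0.00046 with 1 replicate left out), Fosb at 24 h (-3.87 to 0.14), and Junb at 24 h (-2.64 to 0.14).

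The replicate number pairs the samples. Shares over all genes were not computed for the fits with a block. The counts from those fits show how calls depend on the fit and are not results about the members. With the experiment as a replicate block over all times, the count of members called late between Th1/2 and Th1 cells went from 2 to 4, that of Th1 against Th0 cells at single times from 0 to 1, and that of their late minus early difference from 0 to 1. No other count moved by over 1.5 times with this block. With the block within times, counts were 5 at 3 h (3 without) and 6 for the step from 96 to 120 h (2). These are changes over time, for which this block is not suited, since it takes the spread between experiments out of the error. No result is drawn from them. At single times the counts were 27 for Th1 against Th2 (9), 8 for Th1 against Th0 (0), and 27 for Th2 against Th0 cells (15). They were 28 for Th1/2 against Th0 (15), 27 for Th1/2 against Th1 (8), and 4 for Th1/2 against Th2 cells (0). In the middle window they were 4, 4, 5, 6, and 1 for Th1 against Th2 (1), Th2 against Th0 (2), Th1/2 against Th0 (3), Th1/2 against Th1 (2), and Th1/2 against Th2 cells (0). Late they were 4, 6, and 2 for Th1 against Th0 (2), Th1/2 against Th1 (2), and Th1/2 against Th2 cells (0), and for late minus early 5, 3, 6, and 5 for Th1 against Th2 (2), Th1 against Th0 (0), Th2 against Th0 (3), and Th1/2 against Th1 cells (1).

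With the random replicate block within times, chosen after seeing the data, counts at single times were 19, 5, 24, 24, and 15 for Th1 against Th2, Th1 against Th0, Th2 against Th0, Th1/2 against Th0, and Th1/2 against Th1 cells. In the middle window they were 3 for Th1 against Th2 and 1 for Th1/2 against Th2 cells, late 6 for Th1/2 against Th1 cells, and for late minus early 4, 1, and 2 for Th1 against Th2, Th1 against Th0, and Th1/2 against Th1 cells. A 2-fold minimum left 1 member early in each of Th1 against Th2, Th2 against Th0, Th1/2 against Th0, and Th1/2 against Th1 cells, 0 in the middle window and 1 in late minus early for Th1 against Th2, and 1 late for Th1 against Th0 cells. Without a filter on dim probes, or with a late window without 120 h (chosen after seeing the data), late minus early for Th1 against Th2 cells kept 1 of 2. Other probes gave a range over conditions of 0.79 and 1.82 for Fosl2 (5.80), 0.34 for Junb (2.32), and 4.01 for Batf3 (5.05).

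With 1 experiment of a culture left out, counts ranged from 3 to 5 at 3 h, 5 to 7 at 24 h, 4 to 6 at 120 h, 6 to 7 for the step from 3 to 6 h, and 1 to 2 for that from 96 to 120 h. Kinetic members ranged from 5 to 8 in Th0 and Th1, 6 to 9 in Th2 and Th1/2 cells, and 7 to 9 in at least 1 culture. In the order Th1 against Th2, Th1 against Th0, Th2 against Th0, Th1/2 against Th0, Th1/2 against Th1, and Th1/2 against Th2 cells, the ranges were 5 to 11, 0 to 3, 11 to 17, 8 to 17, 3 to 8, and 0 to 1 at single times, and 1 to 3, 0 to 1, 3 to 3, 1 to 4, 1 to 2, and 0 for late minus early. Early they were 1 to 2, 1 to 2, 1 to 2, and 0 to 2 for Th1 against Th2, Th2 against Th0, Th1/2 against Th0, and Th1/2 against Th1 cells, in the middle window 1 to 2, 1 to 2, 2 to 3, and 1 to 2, and late 3 to 6, 4 to 6, 4 to 5, and 2 to 3. Th1 against Th0 cells ranged from 0 to 3 late. Low signal limits Batf3 before 24 h, where its level lay about the filter level.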
